A study of Mus musculus with 12 samples.

Results

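The TGF-beta genes described here are the ligands Tgfb1, Tgfb2 and Tgfb3, the receptors Tgfbr1, Tgfbr2 and Tgfbr3, the latent-ligand binding protein Ltbp1, the inhibitory Smad gene Smad7 and the target gene Tgfbi. These 9 of the 45792 genes in the files were chosen by name, as parts of 1 pathway, and found through the gene symbols of the merged expression table. The rule names genes and uses no measured value, although earlier results of these data were known when it was made. RNA depleted of rRNA was sequenced from 12 cultures of forebrain neural stem cells (NSCs), taken from pups at 1 to 2 days of age and grown without serum in EGF and FGF. The 4 WT cultures came from C57BL/6J mice and were left untreated. The 4 vehicle-treated Ncf1-/- cultures came from mice that lack Ncf1 in every cell, backcrossed to C57BL/6J, and carry no treatment in the labels, whereas the methods of the study call them vehicle-treated. The 4 Igfbp2-treated Ncf1-/- cultures were given mouse recombinant Igfbp2, at 100 ng/ml by the labels and at a different dose by the methods of the study, 48 h after plating, and RNA was taken 48 h later. Ncf1 encodes a cytosolic subunit of the Nox2 NADPH oxidase, which makes superoxide, and Igfbp2 is a secreted protein that binds insulin-like growth factors. Each WT culture and each Ncf1-/- preparation was grown from a separate pup.

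TGF-beta is made as an inactive precursor that stays bound to its own propeptide, and latent TGF-beta binding proteins such as Ltbp1 fix this complex to the extracellular matrix until integrins or proteases release the ligand. The active ligand binds the type II receptor Tgfbr2, which recruits and phosphorylates the type I receptor Tgfbr1, and Tgfbr1 in turn phosphorylates Smad2 and Smad3, which enter the nucleus with Smad4. Tgfbr3 (betaglycan) presents ligand, above all TGF-beta 2, to the type II receptor, and Smad7 is induced by the pathway and shuts the type I receptor down. In the brain, TGF-beta is known to slow the cycling of neural stem and progenitor cells and to promote their exit into differentiation.

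Several libraries stood apart or went against their description. Ncf1, the deleted gene, had 2 to 7 counts per WT library, 2 to 4 per vehicle-treated and 1 per Igfbp2-treated Ncf1-/- library, so that its level could not check the genotype. Among Ncf1-/- libraries, the summed level of 4 genes of the Y chromosome (Uty, Kdm5d, Ddx3y and Eif2s3y), in CPM (counts scaled to library size), was 105 to 116 with vehicle and 7.79 to 9.18 with Igfbp2, with no overlap. The methods of the study describe these as paired cultures of the same animals, and each treatment difference given here cannot be told apart from a difference between cultures with high and low Y-linked expression. Among WT libraries the same sum was 107 to 118 CPM in replicates 1 to 3 and 6.46 CPM in replicate 4, which a second sample sheet of the study's code lists as treated with apocynin, an oxidase inhibitor, while its label says untreated. WT replicate 3 was nearest to the Ncf1-/- libraries, with 327 CPM of Mbp, the myelin basic protein gene, where the highest WT library had 3885 CPM. Values that WT replicate 3 or 4 moved by over 1.5 times, or across the threshold of a test, are therefore given with and without it. The NSC markers Nes and Sox2 were present in every library (at least 118 and 191 CPM). Markers of other cells were low but not all absent. Of the microglial genes Aif1 and Cx3cr1 had at most 2 counts per library and Csf1r 1 to 10, of the endothelial genes Cdh5 had at most 1, Cldn5 0 to 10 and Pecam1 4 to 23, and of the mesenchymal and pericyte genes Lum had at most 1, Col1a1 6 to 96 and Pdgfrb 4 to 435.

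The promoter sequences shown are RefSeq (GRCm38.p6) promoters of 4 of the 5 genes called between WT and vehicle-treated Ncf1-/- NSCs. Ltbp1 has 2 starts, and no entry was used for Smad7. Each run reads 5' to 3' on the strand of the gene and begins 250 bases before the start of transcription. It ends before the first annotated exon of any gene on either strand, and can thus stop short of the start. The Tgfb2 run stops outside the annotated Tgfb2 locus, which reaches to chr1:186705989. Capitals mark CAGAC or its complement GTCTG, the core of the Smad-binding element, and TGACGTCA, the cyclic AMP response element.
Tgfb2, chr1:186706157-186706239 (minus strand): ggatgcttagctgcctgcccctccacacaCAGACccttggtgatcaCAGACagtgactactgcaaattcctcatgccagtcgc
Tgfbr2, chr9:116175364-116175613 (minus strand): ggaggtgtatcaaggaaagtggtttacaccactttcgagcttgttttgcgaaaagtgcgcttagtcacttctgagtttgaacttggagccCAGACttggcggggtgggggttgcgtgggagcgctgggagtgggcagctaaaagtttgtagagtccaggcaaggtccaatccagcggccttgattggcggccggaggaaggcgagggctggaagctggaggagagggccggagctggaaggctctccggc
Tgfbi, chr13:56609336-56609522 (plus strand): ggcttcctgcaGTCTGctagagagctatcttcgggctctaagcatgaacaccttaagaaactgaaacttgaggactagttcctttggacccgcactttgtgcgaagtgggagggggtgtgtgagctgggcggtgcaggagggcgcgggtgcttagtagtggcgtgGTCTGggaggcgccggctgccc
Ltbp1, upstream start, chr17:75005279-75005479 (plus strand): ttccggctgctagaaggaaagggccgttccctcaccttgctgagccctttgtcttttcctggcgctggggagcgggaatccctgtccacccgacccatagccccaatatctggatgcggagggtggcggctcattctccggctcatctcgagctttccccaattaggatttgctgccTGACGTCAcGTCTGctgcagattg
Ltbp1, downstream start, chr17:75178531-75178780 (plus strand): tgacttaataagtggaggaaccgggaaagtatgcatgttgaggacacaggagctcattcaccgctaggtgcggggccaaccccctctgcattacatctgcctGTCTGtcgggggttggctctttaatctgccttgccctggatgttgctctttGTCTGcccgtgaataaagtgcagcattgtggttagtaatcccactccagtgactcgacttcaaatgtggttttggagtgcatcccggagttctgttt
Tgfb2, Tgfbi and the downstream Ltbp1 promoter each held 2 CAGAC matches, and Tgfbr2 and the upstream Ltbp1 promoter held 1 each. Windows of 250 bases with at least 1 match on either strand made up 42.2% of the 32841 promoters of the table. TGACGTCA was found in the upstream Ltbp1 promoter, 73 bases before the start, and in 1.5% of all promoters. The 250 bases before Tgfb1 and before the upstream start of Tgfbr1 held no CAGAC, and those before the downstream start of Tgfbr1 held 1, 203 bases before the start. A match of letters is a description of the window and not evidence of a bound factor.

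Levels are given in 2 units. CPM is the count scaled to a library of fixed size, after the composition of the libraries was balanced (TMM factors), and it serves to compare a gene between libraries. TPM is divided by the length of the transcripts, and only TPM is used to set genes beside each other. In WT NSCs the upper TPM values of the 9 genes were those of Ltbp1 (9.20 ± 0.55, SD, n = 4), Tgfb2 (7.66 ± 0.53), Smad7 (7.41 ± 3.17) and Tgfbr1 (6.33 ± 0.42), and all 4 lay within the wide spread of Smad7. The place of Ltbp1 rests on mean transcript lengths of 787 to 1360 nt in WT, which are described below and lie under those of its annotated coding transcripts. Tgfb3 followed at 2.64 ± 0.95 TPM, then Tgfbr2 (0.763 ± 0.564), Tgfb1 (0.518 ± 0.260) and Tgfbr3 (0.295 ± 0.060), and the spreads of these last 3 overlapped. Tgfbi was lowest, at 0.075 ± 0.059 TPM. In vehicle-treated Ncf1-/- NSCs Smad7 stood far lower in this order, at 0.428 ± 0.149 TPM, next to Tgfb1 (0.400 ± 0.116) and Tgfbi (0.345 ± 0.029).

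**Figure D1:**
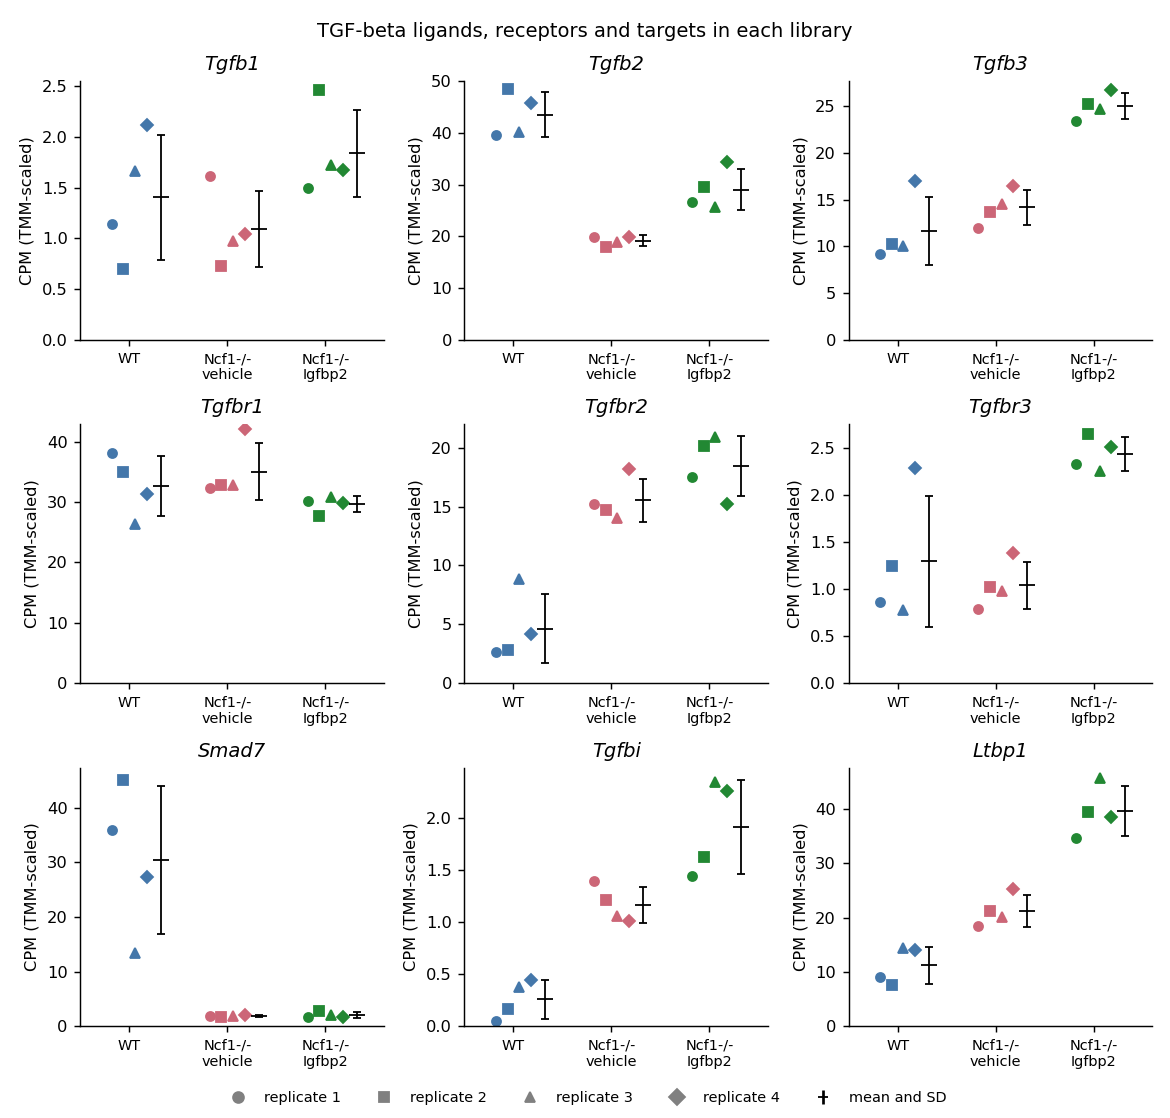
CPM (vertical axes, from 0) of the 9 TGF-beta genes in the 12 libraries, with the mean and SD of each group beside its 4 points and a marker shape for each replicate number. Smad7 lies between 13.3 and 45.2 CPM in WT and below 3 CPM in each Ncf1-/- library, while Tgfb3 and Ltbp1 are highest in all 4 Igfbp2-treated libraries.

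The first comparison asked how the TGF-beta genes differ between WT and vehicle-treated Ncf1-/- NSCs. Smad7 fell about 16.2-fold and Tgfb2 about 2.27-fold in Ncf1-/- NSCs, whereas Tgfbr2 rose 3.27-fold and Tgfbi 4.36-fold. Read counts of Ltbp1 rose 1.88-fold, but its level per transcript length did not. In all, 5 of the 9 genes were called (edgeR quasi-likelihood test, Benjamini-Hochberg adjusted p under 0.05 over all genes tested), 3 higher and 2 lower, where 57.2% of the 15706 genes tested were called, 28.9% as higher and 28.2% as lower. CPM of the groups did not overlap in 5 of the 9 genes, 3 higher and 2 lower, against 51.2% of all genes tested (26.1% higher and 25.0% lower). The share of the 9 called was thus near that of all genes, and their median log2 fold change was 0.10, beside 0.02 over all genes tested. When the library totals replaced the TMM factors, the median of all genes moved to 0.19, the calls over all genes went from 4545 higher and 4433 lower to 6024 higher and 3159 lower, and 5 of the 9 genes were higher and 2 lower.

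Among the ligands, Tgfb2 was the one called. It was measured at 39.5, 48.5, 40.2 and 45.8 CPM in WT replicates 1 to 4, and at 20.0, 17.9, 18.9 and 20.0 CPM in vehicle-treated Ncf1-/- replicates 1 to 4. The groups did not overlap, and the lowest WT library was well above the highest Ncf1-/- library. Its log2 fold change was -1.18 (SE 0.10, adjusted p = 1.09e-06 by edgeR), and it was of the same direction and called in each of the 25 alternatives run.

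Tgfb3 did not pass the test, with 9.19, 10.3, 10.01 and 17.0 CPM in WT and 11.98, 13.7, 14.5 and 16.5 CPM in vehicle-treated Ncf1-/- NSCs. WT replicate 4 was higher than all of the Ncf1-/- libraries, and the other 3 WT libraries were lower than all of them. The log2 fold change was 0.29 (SE 0.17, adjusted p = 0.159 by edgeR), and 0.50 (edgeR adjusted p = 0.00196) without WT replicate 4. Tgfb1 was low throughout, at 0.702 to 2.12 CPM in WT and 0.726 to 1.61 CPM in vehicle-treated Ncf1-/- NSCs, and the groups overlapped (log2 fold change -0.37, SE 0.33, adjusted p = 0.362 by edgeR).

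The makeup of the ligand pool can be read from the levels per length. Tgfb2 made up 76.4, 77.1, 71.0 and 60.9% of the TPM of the 3 ligands in WT replicates 1 to 4, against 55.8, 55.6, 48.7 and 50.1% in vehicle-treated Ncf1-/- NSCs. The TPM ratio of Tgfb2 to Tgfb3 was 3.15 ± 0.92 (SD, n = 4) in WT and 1.26 ± 0.23 in vehicle-treated Ncf1-/- NSCs. All 4 WT libraries were above all 4 Ncf1-/- libraries (two-sided exact permutation test p = 0.0286, the smallest that 4 against 4 allows, and 0.0522 after adjustment over 42 such tests). The lowest WT ratio, 1.87, was that of replicate 4, and the WT mean was 3.57 without it.

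Of the receptors, Tgfbr2 changed. Its CPM was 2.59, 2.81, 8.86 and 4.18 in WT replicates 1 to 4 and 15.2, 14.8, 14.0 and 18.2 in the vehicle-treated Ncf1-/- replicates. WT replicate 3 was the highest WT library, and it was still below all Ncf1-/- libraries. Its log2 fold change was 1.71 (SE 0.30, adjusted p = 0.000336 by edgeR), and 2.30 (edgeR adjusted p = 1.61e-07) without WT replicate 3.

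Tgfbr1, the partner of Tgfbr2 in the signalling complex, was measured at 38.1, 34.9, 26.4 and 31.3 CPM in WT and at 32.4, 32.8, 32.8 and 42.1 CPM in vehicle-treated Ncf1-/- NSCs. The groups overlapped (log2 fold change 0.10, SE 0.12, adjusted p = 0.472 by edgeR), and the sign of this small value differed between alternatives. Tgfbr3 had 19 to 41 counts per WT library and 18 to 37 per vehicle-treated Ncf1-/- library, and its log2 fold change of -0.27 (SE 0.32, adjusted p = 0.498 by edgeR) turned to 0.11 without WT replicate 4. It was called lower with limma on log2(TPM + 1) of rescaled TPM (-0.41, adjusted p = 0.00981) and with the effective length as an offset (-0.84, edgeR adjusted p = 0.01). The TPM ratio of the type I to the type II receptor was 17.4, 16.0, 3.65 and 9.52 in WT replicates 1 to 4 and 2.44 to 2.51 in the vehicle-treated Ncf1-/- replicates, again with no overlap (two-sided exact permutation test p = 0.0286, adjusted 0.0522). The WT mean was 11.6, and 14.3 without replicate 3.

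**Figure D2:**
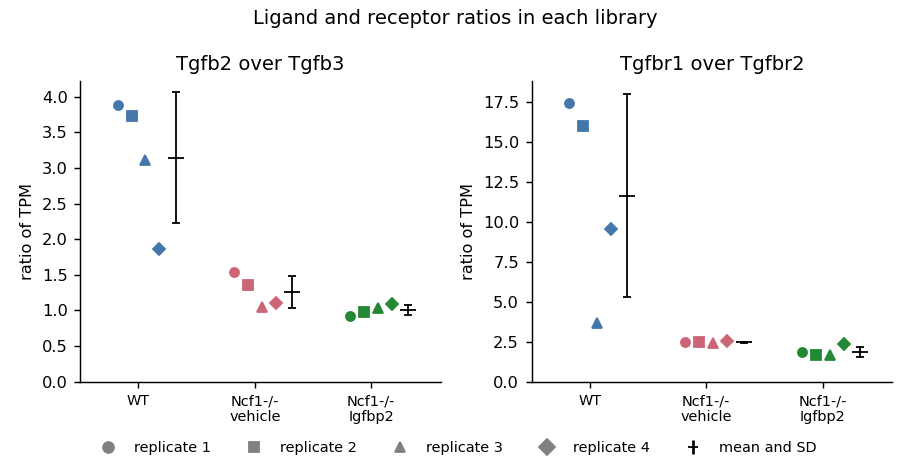
TPM ratios (vertical axes, from 0) of Tgfb2 to Tgfb3 and of Tgfbr1 to Tgfbr2 in each library, with the mean and SD of each group. Both ratios are higher in the 4 WT libraries than in the 8 Ncf1-/- libraries, with WT replicate 4 lowest for the ligands (1.87) and WT replicate 3 lowest for the receptors (3.65).

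Smad7 showed the largest change of the 9 genes in both comparisons with WT. It had 35.9, 45.2, 13.3 and 27.4 CPM in WT replicates 1 to 4, and 1.83, 1.69, 1.94 and 1.98 CPM in the vehicle-treated Ncf1-/- replicates. Even WT replicate 3, the lowest, was well above the highest Ncf1-/- library. The log2 fold change was -4.02 (SE 0.33, adjusted p = 6.5e-07 by edgeR), and -4.27 (edgeR adjusted p = 7.85e-10) without WT replicate 3. Markers of the oligodendrocyte, astrocyte and neuronal lineages were also lower in Ncf1-/- NSCs. The summed CPM of 13 oligodendrocyte lineage genes was 11770, 12319, 3500 and 7452 in WT replicates 1 to 4 and 2203 to 2370 in vehicle-treated Ncf1-/- NSCs, and 11 of the 13 were called lower and 2 higher. Of 7 astrocyte genes, 6 were called lower, with summed CPM of 6466 to 11943 in WT and 2446 to 2984 in vehicle-treated Ncf1-/- NSCs. Of 9 neuronal lineage genes, 6 were called lower and none higher, with summed CPM of 109 to 194 in WT and 36.1 to 40.4 with vehicle. Of 9 neural stem cell genes, 6 were called lower and 2 higher, and their summed CPM of 3349 to 9166 in WT and 8456 to 9030 with vehicle overlapped. The order of the 4 WT libraries in the oligodendrocyte sum was the same as in Smad7, and the part of these cell types in the Smad7 difference was not tested. In bulk RNA, fewer cells of a type and less RNA per cell cannot be told apart.

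Tgfbi, a secreted matrix protein induced by TGF-beta, was near its limit of detection in WT. It had 1, 3, 13 and 8 counts in WT replicates 1 to 4 (0.0455, 0.162, 0.373 and 0.445 CPM), and 32, 25, 24 and 27 counts (1.39, 1.21, 1.06 and 1.01 CPM) in the vehicle-treated Ncf1-/- replicates. The groups did not overlap (log2 fold change 2.13, SE 0.40, adjusted p = 0.000542 by edgeR). Its fold change rests on few reads and is correspondingly imprecise. A sum over 11 mesenchymal and pericyte markers, of which 7 were tested, was 45.1 to 62.2 CPM in WT and 43.9 to 64.3 CPM in vehicle-treated Ncf1-/- NSCs. Its genes moved in both directions, with 4 of the 7 tested called higher and 1 lower (median log2 fold change 1.17). The pericyte receptor Pdgfrb had 170 to 435 counts in WT and 4 to 13 with vehicle, the collagen gene Col1a1 had 6 to 45 and 38 to 64, and Lum had at most 1 count per library. The part of these markers in the Tgfbi difference was not tested.

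The second comparison set Igfbp2-treated beside vehicle-treated Ncf1-/- NSCs. Tgfb2, Tgfb3, Tgfbr3 and Ltbp1 rose, by 1.51-, 1.77-, 2.32- and 1.87-fold, and none fell, while Smad7 and Tgfbr2 were not called. The 4 of 9 genes called compare with 25.0% of all genes tested, of which 14.2% were higher and 10.7% lower, and the median log2 fold change of the 9 was 0.72 beside 0.04 over all genes. CPM of the treatments did not overlap in 6 of the 9, 5 higher and 1 (Tgfbr1) lower, against 34.1% of all genes tested (19.3% higher and 14.7% lower). The direction and number of these calls depended on the scaling. When the library totals replaced the TMM factors, the median of all genes moved from 0.04 to -0.23 and the calls over all genes went from 2238 higher and 1685 lower to 648 higher and 5258 lower. Of the 9 genes 4 were then called higher and 1, Tgfbr1, lower, and on log2(TPM + 1), where the median of all genes was -0.30, limma called 1 higher (Tgfbr3) and 1 lower (Tgfbr1).

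Tgfb3 was measured at 23.4, 25.2, 24.7 and 26.8 CPM in Igfbp2-treated replicates 1 to 4, against 11.98 to 16.5 CPM with vehicle. All 4 treated libraries were above all vehicle-treated and all WT libraries. The log2 fold change was 0.82 (SE 0.17, adjusted p = 0.00515 by edgeR), and on the log2(TPM + 1) scale it was 0.27 (limma adjusted p = 0.245). With limma on TPM rescaled without the most abundant genes, Tgfb3 kept its call.

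Tgfb2 rose from 17.9 to 20.0 CPM with vehicle to 26.7, 29.5, 25.6 and 34.4 CPM in Igfbp2-treated replicates 1 to 4, which left it below the WT range of 39.5 to 48.5 CPM. The 3 groups did not overlap. The log2 fold change between treatments was 0.60 (SE 0.10, adjusted p = 0.00228 by edgeR). In TPM the treated and vehicle-treated libraries overlapped, at 3.08 to 5.14 and 3.44 to 4.80. On log2(TPM + 1) limma did not call the rise (difference 0.03, adjusted p = 0.875). With limma on TPM rescaled without the most abundant genes, Tgfb2 kept its call. Tgfb1 had 1.495, 2.46, 1.72 and 1.67 CPM with Igfbp2, and vehicle-treated replicate 1, at 1.61 CPM, lay above the lowest of them (log2 fold change 0.74, SE 0.33, adjusted p = 0.115 by edgeR).

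With both isoforms higher, the CPM of the 3 ligands together was 51.6 to 62.8 with Igfbp2 and 32.3 to 37.5 with vehicle, and 49.8 to 64.9 in WT. The treated and WT libraries overlapped in this sum, with means of 55.9 and 56.5 CPM, though the makeup differed, with Tgfb2 at 45.4 to 49.8% of the ligand TPM with Igfbp2 and 60.9 to 77.1% in WT. In TPM the 3 groups overlapped in the ligand sum, at 9.20 to 12.2 in WT, 6.93 to 9.59 with vehicle and 6.78 to 10.7 with Igfbp2.

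Among the receptors, Tgfbr3 rose from 18, 21, 22 and 37 counts with vehicle (0.784, 1.02, 0.971 and 1.38 CPM) to 42, 44, 47 and 51 counts with Igfbp2 (2.33, 2.64, 2.25 and 2.50 CPM). The 2 treatments did not overlap (log2 fold change 1.21, SE 0.31, adjusted p = 0.0143 by edgeR), and WT replicate 4, at 2.28 CPM, lay within the treated range. Tgfbr1 had 30.2, 27.6, 30.7 and 29.9 CPM with Igfbp2, below each vehicle-treated library. Its log2 fold change of -0.24 (SE 0.12) was not called (edgeR adjusted p = 0.145). It was called lower with library totals, with limma on log2(TPM + 1) and log2(TPM + 0.1) and when WT was left out of the fit, but neither with limma on TPM rescaled without the 100 most abundant genes (adjusted p = 0.137) nor with the analysis of variance that the study used (adjusted p = 0.13). Tgfbr2 had 17.5, 20.1, 20.9 and 15.3 CPM with Igfbp2, which overlapped the vehicle-treated libraries (log2 fold change 0.25, SE 0.29, adjusted p = 0.555 by edgeR, of the opposite sign with library totals).

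Smad7 was not called between the treatments, with 1.77, 2.82, 2.10 and 1.67 CPM with Igfbp2 (log2 fold change 0.16, SE 0.36, adjusted p = 0.775 by edgeR), and all treated libraries were below all WT libraries. Tgfbi had 1.44, 1.62, 2.34 and 2.26 CPM with Igfbp2, each above the highest vehicle-treated library at 1.39 CPM. Its log2 fold change of 0.72 (SE 0.33) did not pass the test (edgeR adjusted p = 0.123), and passed it when WT was left out of the fit (0.68, edgeR adjusted p = 0.034). The summed mesenchymal and pericyte markers, 43.9 to 64.3 CPM with vehicle, were 74.3 to 92.1 CPM with Igfbp2, and 5 of the 7 tested were called higher. The endothelial sum, over 8 listed genes, went from 7.19 to 10.8 CPM with vehicle to 17.2 to 20.7 CPM with Igfbp2. Of its 4 genes tested, 2 were called higher, and Cldn5 had 0 to 2 counts with vehicle and 3 to 10 with Igfbp2, while Cdh5 had at most 1 in any library. The part of such markers in the rise of the TGF-beta genes was not tested.

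The third comparison, of Igfbp2-treated Ncf1-/- with WT NSCs, shares its libraries with the other 2. It called 7 of the 9 genes, 5 higher (Tgfb3, Tgfbr2, Tgfbr3, Tgfbi and Ltbp1) and 2 lower (Tgfb2 and Smad7), where 62.4% of all genes tested were called, 31.6% as higher and 30.8% as lower. CPM did not overlap in 6 of the 9, 4 higher and 2 lower, against 54.3% of all genes (27.8% higher and 26.6% lower). A test of any difference among the 3 groups called 7 of the 9 genes and 71.6% of all genes. On log2(TPM + 1), limma called 3 higher and 3 lower, and over all genes 1969 higher and 6890 lower in place of 4964 and 4837. Smad7 was 14.6-fold lower (log2 fold change -3.86, SE 0.33, adjusted p = 8.5e-07 by edgeR) and Tgfb2 1.497-fold lower (log2 fold change -0.58, SE 0.10, adjusted p = 0.000271 by edgeR) than in WT. Tgfbi was 7.19-fold higher (log2 fold change 2.85, SE 0.39, adjusted p = 4.16e-05 by edgeR), Tgfbr2 3.88-fold (1.96, SE 0.31, adjusted p = 0.000113 by edgeR) and Tgfb3 2.16-fold (1.11, SE 0.17, adjusted p = 9.48e-05 by edgeR). The log2 fold change of Tgfbr2 was 2.54 without WT replicate 3. Tgfbr3 was called at a log2 fold change of 0.95 (SE 0.31, adjusted p = 0.016 by edgeR), although WT replicate 4 overlapped the treated libraries, and the call was lost without Igfbp2-treated replicate 2 (edgeR adjusted p = 0.0505). In all, 8 of 24 alternatives lost the call, among them each limma fit of TPM, the study's analysis of variance and the effective length as an offset. Mean TPM of Tgfbr3 was 0.295 in WT and 0.315 with Igfbp2. Without WT replicate 4 the Tgfbr3 value was 1.29 (edgeR adjusted p = 0.000629).

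**Figure D3:**
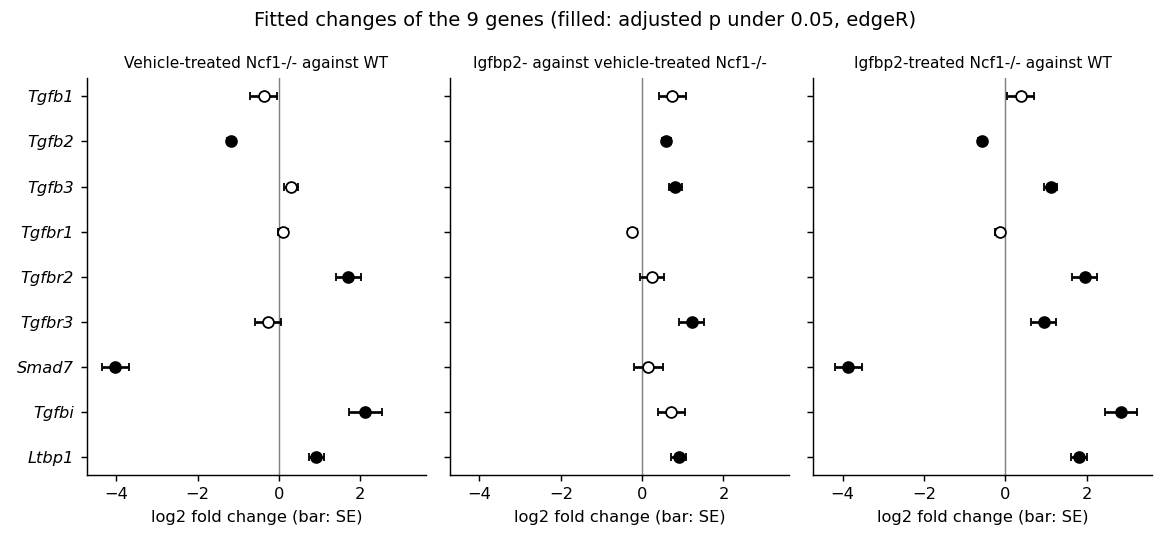
Fitted log2 fold changes (horizontal axes, bars give the SE) of the 9 TGF-beta genes in the 3 comparisons, with filled points for edgeR adjusted p under 0.05. Smad7 lies at -4.02 and -3.86 against WT and at 0.16 between the treatments, whereas Tgfb3, Tgfbr3 and Ltbp1 lie to the right of 0 between the treatments.

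For Ltbp1 the 2 units gave different accounts. So they did for the rises of Tgfb2 and Tgfb3 between the treatments, except with rescaled TPM. With the effective length as an offset, Tgfb2 and Tgfb3 kept their calls between the treatments, whereas Ltbp1 did not. Its reads were 9.05, 7.56, 14.3 and 14.0 CPM in WT replicates 1 to 4, 18.4, 21.2, 20.1 and 25.3 CPM with vehicle and 34.8, 39.5, 45.8 and 38.5 CPM with Igfbp2 in Ncf1-/- NSCs. No 2 groups overlapped, and the steps were log2 fold changes of 0.91 (SE 0.19, adjusted p = 0.000919 by edgeR) between the genotypes and 0.90 (SE 0.18, adjusted p = 0.00461 by edgeR) between the treatments. In TPM, WT libraries had 8.48 to 9.81, vehicle-treated 8.86 to 9.40 and Igfbp2-treated 5.44 to 9.51, which all overlapped.

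The length by which RSEM divides the reads moved with the groups. The mean length of the Ltbp1 transcripts, weighted by their abundance, was 787, 790, 1360 and 1304 nt in WT replicates 1 to 4. It was 1566, 1835, 1814 and 2524 nt with vehicle and 3129, 3393, 3282 and 2842 nt with Igfbp2, so that all vehicle-treated libraries lay above WT and all Igfbp2-treated libraries above both. In each of the 3 pairs of groups the two-sided exact permutation test gave p = 0.0286 (0.0522 adjusted over the 42 tests). Among 10642 tested genes with 2 or more listed transcripts, mean lengths of WT and vehicle-treated libraries did not overlap in 9.73% and those of the treatments in 10.1%, and 13 genes (0.122%) had the order of groups seen in Ltbp1.

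Ltbp1 (ENSMUSG00000001870) spans chr17:75005568-75392512 on the plus strand of GRCm38. The files list 7 transcripts for it, which in GENCODE M21 are 4 coding ones of 6671, 5140, 4870 and 3114 nt, 2 with a retained intron (3277 and 1905 nt) and a processed transcript without a coding frame (519 nt). The mean lengths of all WT and vehicle-treated libraries were below that of the shortest coding transcript, as was that of Igfbp2-treated replicate 4. The annotation release of the files is not given in the sources used here, and its lengths can differ from these. Isoform shares were not analysed here, so which transcripts differed was not resolved. With the effective length entered as an offset, an alternative added after the data were seen, the log2 fold changes were -0.07 (edgeR adjusted p = 0.605) between the genotypes and 0.13 (edgeR adjusted p = 0.391) between the treatments.

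**Figure D4:**
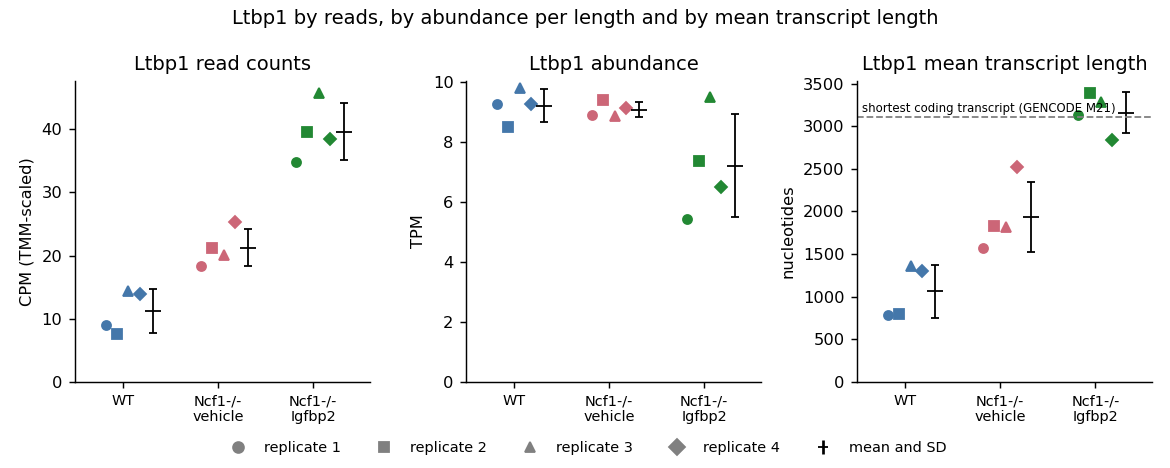
Ltbp1 in each library as CPM, as TPM and as the mean length of its transcripts in nucleotides (vertical axes, from 0), with the mean and SD of each group and a dashed line at 3114 nt, the shortest listed coding transcript. CPM and length rise from WT to vehicle-treated to Igfbp2-treated libraries without overlap, while the TPM of the groups overlaps.

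The other 8 genes lie on 8 chromosomes of GRCm38. The ligands are Tgfb1 (ENSMUSG00000002603) at chr7:25687002-25705077 (plus strand), Tgfb2 (ENSMUSG00000039239) at chr1:186622792-186705989 (minus strand) and Tgfb3 (ENSMUSG00000021253) at chr12:86056745-86079041 (minus strand). The receptors are Tgfbr1 (ENSMUSG00000007613) at chr4:47353222-47414931 (plus strand), Tgfbr2 (ENSMUSG00000032440) at chr9:116084293-116175360 (minus strand) and Tgfbr3 (ENSMUSG00000029287) at chr5:107106570-107289629 (minus strand). Tgfbi (ENSMUSG00000035493) lies at chr13:56609523-56639562 and Smad7 (ENSMUSG00000025880) at chr18:75367529-75395935, both on the plus strand. Mean transcript lengths of Tgfbr1 were 3758 to 4011 nt in WT and 4112 to 4563 nt with vehicle, without overlap. Such a gap was seen in 9.73% of tested genes with 2 or more listed transcripts. With Igfbp2 they were 3968 to 4379 nt, which overlapped both. Mean transcript lengths of Tgfb2, Tgfbr3 and Smad7 overlapped between WT and vehicle-treated libraries and between the treatments. Between Igfbp2-treated and WT libraries those of Smad7 did not overlap, with means of 2557 and 3087 nt (two-sided exact permutation test p = 0.0286, adjusted 0.0522), while those of Tgfb2 and Tgfbr3 did.

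The genes whose CPM followed each member most closely over the 12 libraries are given as a description, since all points share the 3 groups. Smad7 was followed by Hr (Pearson r = 0.996) and Plcg2 (0.996), and Tgfbr2 by Ehd2 (0.997) and Tmc3 (0.997). Tgfb2 was followed by Pde4a (0.990) and Pcdhga7 (0.981), Tgfb3 by Klf9 (0.989) and Usp2 (0.986), and Ltbp1 by P3h2 (0.988) and Ptrf (0.988). The values were 0.982 (Cxcl10) and 0.976 (Emx2) for Tgfbi, 0.967 (Adgrb2) and 0.951 (Slc12a4) for Tgfbr3, 0.941 (Gmps) and 0.939 (Cnot7) for Tgfbr1 and 0.938 (Cideb) and 0.875 (Mybpc2) for Tgfb1.

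Around these 9 genes, 69 other genes of the pathway were followed in 4 lists, of which 61 passed the filter on low counts. In vehicle-treated Ncf1-/- against WT NSCs 17 were higher and 23 lower (65.6% called, against 57.2% of all genes). Between the treatments 21 were higher and 1, the kinase gene Map3k7, lower (36.1% called, against 25.0%). That split, too, depended on the scaling, since library totals gave 13 higher and 8 lower and limma on log2(TPM + 1) 5 higher and 8 lower. Against WT, Igfbp2-treated Ncf1-/- NSCs had 25 higher and 22 lower (77.0% called, against 62.4%), and 18 higher and 25 lower with limma on log2(TPM + 1).

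Of 16 genes of ligand storage and activation, 13 were tested. In vehicle-treated Ncf1-/- NSCs 5 rose and 4 fell (69.2% called, against 57.2% of all genes). Lrrc32, which tethers latent TGF-beta to the cell surface, rose from 0.0540 to 0.832 CPM in WT to 6.32, 7.06, 7.33 and 9.55 CPM (log2 fold change 4.12, SE 0.37, adjusted p = 1.38e-06 by edgeR). Without WT replicate 3 this value was 5.05 (edgeR adjusted p = 3.4e-08). It was higher again in Igfbp2-treated NSCs, at 16.5 to 17.7 CPM (1.18, SE 0.27, adjusted p = 0.00896 by edgeR). Thbs2, a matrix thrombospondin, was 10.96, 10.8, 140 and 17.3 CPM in WT replicates 1 to 4 and 161 to 193 CPM with vehicle, so that WT replicate 3 resembled the Ncf1-/- libraries (1.96, SE 0.67, adjusted p = 0.0234 by edgeR). Without WT replicate 3 the Thbs2 value was 3.76 (edgeR adjusted p = 9.92e-10), and without WT replicate 4 it was 1.68 and not called (edgeR adjusted p = 0.0559).

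Ltbp3, another latent TGF-beta binding protein, fell from 97.4, 106, 155 and 154 CPM in WT to 67.8 to 78.7 CPM with vehicle (log2 fold change -0.80, SE 0.14, adjusted p = 0.000357 by edgeR) and stood at 127 to 155 CPM with Igfbp2 (0.95, SE 0.14, adjusted p = 0.00128 by edgeR). Itgb5, an integrin subunit, fell by 0.56 on the log2 scale (edgeR adjusted p = 0.000243) and rose by 0.58 with Igfbp2 (edgeR adjusted p = 0.00182). Between the treatments 6 genes of the list rose and none fell at this threshold (46.2% called). Of all genes tested 25.0% were called, 14.2% as higher and 10.7% as lower. The listed genes had a median log2 fold change of 0.57, and all tested genes had 0.04.

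Of the related receptors and Smad signal transducers, 13 of 15 were tested, and 1 was higher and 7 lower with vehicle than in WT (61.5% called, against 57.2% of all genes). Tab2, an adaptor of the TAK1 kinase, went from 169 to 225 CPM in WT to 74.5 to 86.1 CPM (log2 fold change -1.33, SE 0.09, adjusted p = 2.07e-07 by edgeR). Acvr1b, a type I activin receptor, went from 34.4 to 45.4 CPM to 17.7 to 20.8 CPM (-1.03, SE 0.09, adjusted p = 1.61e-06 by edgeR). Acvr1b rose by 0.42 with Igfbp2 (edgeR adjusted p = 0.00841). Smad3 had 31.7, 30.2, 32.6 and 58.1 CPM in WT and 37.6 to 58.9 CPM with vehicle, which overlapped. The log2 fold change of Smad3 was 0.32 and not called, and without WT replicate 4 it was 0.56 and called (edgeR adjusted p = 0.0046). With Igfbp2 it rose to 93.2, 98.9, 119 and 93.0 CPM (log2 fold change 1.09, SE 0.20, adjusted p = 0.00295 by edgeR). Smad2, which Tgfbr1 also phosphorylates and which was named after its values were seen, had a log2 fold change of 0.01 (SE 0.07, adjusted p = 0.94 by edgeR). Acvr1, a type I receptor of bone morphogenetic proteins, fell by 0.61 between WT and vehicle (edgeR adjusted p = 1.9e-05). It rose by 0.52 with Igfbp2 (edgeR adjusted p = 0.00105), and Map3k7, the TAK1 kinase, fell by 0.31 (edgeR adjusted p = 0.0124).

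All 13 pathway inhibitors were tested, and with vehicle 7 were lower and 2 higher than in WT (69.2% called, against 57.2% of all genes). The ubiquitin ligases Nedd4l and Smurf1, partners of Smad7 in the removal of the receptor, fell by 1.29 (SE 0.14, adjusted p = 5.02e-06 by edgeR) and 1.21 (SE 0.18, adjusted p = 6.84e-05 by edgeR) on the log2 scale. Smurf1 was measured at 103, 118, 56.4 and 81.9 CPM in WT replicates 1 to 4 and at 35.4 to 42.3 CPM with vehicle. WT replicate 3 was again the lowest of its group. Smad6, the other inhibitory Smad (named after its values were seen), fell by 1.72 (SE 0.22, adjusted p = 2.68e-05 by edgeR). Between the treatments 2 rose, Tgif1 (0.72, SE 0.18, adjusted p = 0.0134 by edgeR) and Ski (0.35, SE 0.12, adjusted p = 0.0473 by edgeR, named after its values were seen), both repressors of Smad transcription complexes. None fell, and 15.4% of the list was called, against 25.0% of all genes. Nedd4l was not called between the treatments (0.38, edgeR adjusted p = 0.0584), but was called without WT replicate 3 (edgeR adjusted p = 0.00687). Of all 13, 11 were called against WT in Igfbp2-treated NSCs (84.6%), 8 lower and 3 higher. Of all genes tested 62.4% were called in that comparison, 30.8% as lower and 31.6% as higher.

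Of 25 transcriptional targets of TGF-beta in other cells, 22 were tested. With vehicle 9 were higher and 5 lower than in WT (63.6% called, against 57.2% of all genes). With Igfbp2 10 were higher and none lower than with vehicle (45.5% called). Of all genes tested 25.0% were called between the treatments, 14.2% as higher. There the listed targets had a median log2 fold change of 0.97, and all tested genes had 0.04. The split over all lists together depended on the scaling, as given above. Tagln, a smooth muscle actin-binding protein, had 1.05, 1.08, 2.84 and 2.23 CPM in WT and 3.54 to 4.90 CPM with vehicle, and 22.8, 14.8, 13.4 and 17.5 CPM with Igfbp2. The rise between treatments (log2 fold change 2.08, SE 0.27, adjusted p = 0.000696 by edgeR) was the largest of the list. Cdkn2b, the cell cycle inhibitor p15, rose from 8.17 to 11.9 CPM to 17.4 to 24.3 CPM with Igfbp2 (1.11, SE 0.16, adjusted p = 0.000956 by edgeR).

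The targets did not move as a unit between the genotypes. Hmga2, a chromatin protein of fetal stem cells, rose from 1.45 to 2.87 CPM in WT to 12.9 to 17.7 CPM with vehicle (log2 fold change 2.88, SE 0.27, adjusted p = 2.14e-06 by edgeR). Acta2, the smooth muscle actin, had 0.182, 0.270, 2.98 and 0.0557 CPM in WT and 5.49 to 6.86 CPM with vehicle (2.55, SE 0.61, adjusted p = 0.00286 by edgeR), and the value was 5.12 (edgeR adjusted p = 3.97e-09) without WT replicate 3. Cyr61, a matricellular protein, fell from 13.2 to 23.4 CPM to 4.93 to 5.75 CPM (-1.81, SE 0.15, adjusted p = 6.4e-07 by edgeR). With Igfbp2 it stood at 9.08 to 10.1 CPM (0.84 against vehicle, edgeR adjusted p = 0.00261). Vcan, the proteoglycan versican, fell by 1.01 on the log2 scale between the genotypes (edgeR adjusted p = 8.46e-06). Tagln and Acta2 are also genes of smooth muscle cells and pericytes, whose summed markers are given above, and their part was not tested.

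**Figure D5:**
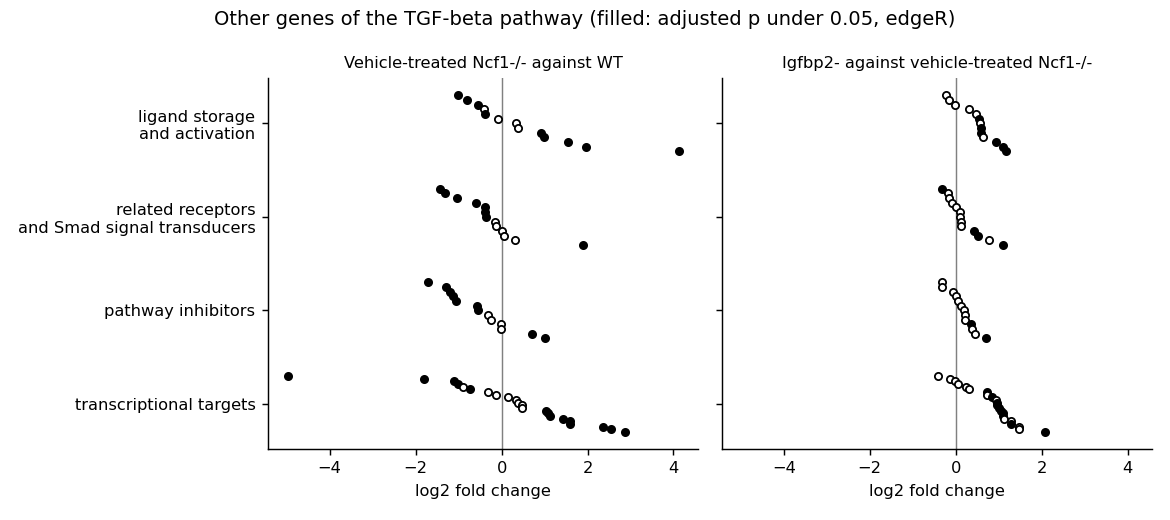
Fitted log2 fold changes (horizontal axes) of the 61 tested pathway genes in 4 lists (rows), for vehicle-treated Ncf1-/- against WT and for Igfbp2- against vehicle-treated Ncf1-/- NSCs, with filled points for edgeR adjusted p under 0.05. Inhibitors lie mostly left of 0 in the first panel (7 called lower and 2 higher), and targets mostly right of 0 in the second (10 called higher and none lower). Of all genes tested 28.2% were called lower in the first comparison and 14.2% higher in the second. The split of the 61 genes in the second depended on the scaling.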

How the data were processed

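Per the labels, total RNA of 12 NSC cultures was depleted of rRNA and sequenced, and the submitters' processing notes name Bowtie2, RSEM and build GRCm38. The authors deposited, per library, RSEM's expected count per gene, without normalization, and TPM, which divides counts by effective length and scales each library to a fixed sum. A merged table deposited by the authors holds a score that matched TPM times the transcripts listed per gene (within 0.01 per transcript, in 100% of 257083 values above 0), and it was used for gene symbols only. The annotation release is not given in the sources used here.

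Expected counts (33.8% of those above 0 were not whole) were rounded and fitted with edgeR 4.0.16 in R 4.3.3 (quasi-likelihood, TMM factors, filterByExpr, a mean per group over all 12 libraries), and p-values were adjusted by Benjamini-Hochberg over the 15706 genes kept, which hold 99.9% of the counts. Totals per library were 18647167 to 34086554 in WT, 18216794 to 23853851 in vehicle-treated and 18201622 to 22837749 in Igfbp2-treated NSCs, and the median SE of a log2 fold change was 0.141 between vehicle-treated Ncf1-/- and WT and 0.141 between the treatments. Ratios and lengths were compared by exact permutation over 4 against 4 libraries. The members and gene lists were chosen with earlier results of these data known. Of each list and of the first 2 comparisons, the 2 genes with the largest rise and fall among those called, at a mean of at least 5 CPM and without overlap, were named, as were the 2 genes most like each member (Pearson r of log2 CPM with a prior count of 2). Pups were separate within each group, so that p-values between WT and Ncf1-/- NSCs measure the spread between cultures of different pups. Between the treatments the libraries were fitted as independent. The fits were tried on simulated data. Alternatives were DESeq2 1.42.0, limma 3.58.1 on TPM, the study's analysis of variance on TPM, other filters, scalings and thresholds, a block for culture pairs and each library left out. The study describes vehicle- and Igfbp2-treated cultures as paired, but deviations from the group means of cultures with the same number correlated at -0.0673 to 0.0328 over 4 pairs (-0.248 to 0.257 over 12 other pairs), so the main fit had no block.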

Additional observations from a re-analysis of the deposited data

Results flagged for a closer look

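In 9 of 144 sets of 4 values from 1 group (CPM and TPM of the TGF-beta genes, CPM of the named pathway genes, ratios, ligand sums and summed markers), 1 library lay far from the other 3, with a gap to its neighbour above Dixon's critical share of the whole range. Chance marks about 1 in 20 such sets. WT replicate 4 was high in Tgfb3, at 17.0 CPM against 9.19 to 10.3 CPM, and in Smad3, at 58.1 CPM against 30.2 to 32.6 CPM, and it was the WT library with low summed Y-linked genes, at 6.46 CPM against 107 to 118 CPM. WT replicate 3 was high in Thbs2, at 140 CPM against 10.8 to 17.3 CPM, and in Acta2, at 2.98 CPM against 0.0557 to 0.270 CPM. Vehicle-treated Ncf1-/- replicate 4 was high in Tgfbr1, at 42.1 CPM against 32.4 to 32.8 CPM and 8.52 TPM against 5.41 to 5.83 TPM, and in the TPM of Tgfbr2, at 3.39 against 2.22 to 2.38. Igfbp2-treated replicate 3 was high in Hmga2, at 23.1 CPM against 10.998 to 12.3 CPM.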

How the results depend on the processing

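Called changes of Tgfb2, Tgfbr2, Smad7 and Tgfbi between vehicle-treated Ncf1-/- and WT NSCs kept their direction and their call in each alternative that kept the gene (24 for Tgfbi, which a mean of at least 5 CPM left out, and 25 for the others). The cause of each change listed next was not tested, unless the alternative itself tests fewer libraries or applies a stricter limit. The number of the 9 genes called between the treatments went from 4 to 2 with limma on log2(TPM + 1) and to 2 on log2(TPM + 0.1), to 0 with the study's own test (analysis of variance with Tukey's post hoc test on TPM, with 2 at an unadjusted p under 0.05, where DESeq2 called 4) and to 1 at a log2 fold change of at least 1. Against WT, Igfbp2-treated NSCs had 3 of the 9 called with the study's test in place of 7.

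For the pathway lists, the study's test called 20 genes in place of 40 between the genotypes, 3 in place of 22 between the treatments and 27 in place of 47 for Igfbp2-treated against WT, which had 28 at a log2 fold change of at least 1. Between the treatments 35 were called with only the 2 groups in the fit, 13 and 11 with limma at the pseudocounts of 1 and 0.1, and 9 at a log2 fold change of at least 1. Over all genes, between the genotypes 4328 were called with the study's test and 3246 once a size of at least 1 (log2) was required, in place of 8978. For Igfbp2-treated against WT these were 5592 and 3848, in place of 9801. Between the treatments, in place of 3923, they were 5906 with library totals, 6354 and 6519 with limma, 2148 with the study's test, 1514 at an adjusted p under 0.01 and 914 at a log2 fold change of at least 1.

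With each library left out in turn, 5 to 6, 4 to 4 and 6 to 7 of the 9 genes were called in the 3 comparisons and 7 to 7 over the 3 groups. Between the treatments the pathway genes called were 17 to 31 and all genes called 2294 to 4872, with 2320 without vehicle-treated replicate 1, 2294 without vehicle-treated replicate 2 and 2550 without Igfbp2-treated replicate 2.

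The sign of some log2 fold changes reversed. Tgfbr1 between the genotypes became -0.0174 and -0.0223 with limma at both pseudocounts, -0.16 on TPM rescaled without the 100 most abundant genes, -0.0368 without vehicle-treated replicate 4 (0.1829 at the highest with 1 library left out) and -0.0773 with the length offset, and Tgfbr3 became 0.11 without WT replicate 4 (-0.4814 at the lowest). Ltbp1 between the genotypes became -0.0169, -0.0184 and -0.16 in these 3 fits of TPM, -0.0201 with the study's test and -0.0694 with the length offset. Between the treatments it became -0.32 and -0.36 with limma and -0.33 with the study's test, and against WT -0.34, -0.38 and, rescaled, -0.16, and -0.35 with the study's test. Between the treatments Tgfbr2 became -0.0229 with library totals, -0.16 and -0.22 with limma and -0.20 with the study's test, and Smad7 became -0.11 with library totals and -0.0492 without Igfbp2-treated replicate 2 (0.2235 at the highest).

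The replicate numbers of vehicle- and Igfbp2-treated cultures, taken as pairs and entered as a replicate block, left 5, 4 and 7 of the 9 genes called and 18 pathway genes called between the treatments in place of 22, so the block moved no count of calls by over 1.5 times. Tgfb1, Tgfbr3 and Tgfbi had at most 58 counts in a library, which limits the precision of their fold changes.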
